A study of Mus musculus with 24 samples.

Results

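The comparison of medial prefrontal cortex (mPFC) with striatum in mice at postnatal day 14 (P14) rests on 10 of the 24 samples of the series. They were chosen by their labels alone, as the 5 mPFC samples and the 5 striatum samples of that age. All animals were wild type C57BL/6 mice with no treatment, 4 male and 1 female, and mouse 4 was the female. Each of the 5 mice gave a sample of mPFC and a sample of striatum, so that samples of the same number were compared as a pair. The tissue was taken with a punch of 2 mm, the striatum punch held dorsal and ventral striatum together, and total RNA without its ribosomal part was read in 50 bp from libraries that keep the strand. A punch is bulk tissue without a sort, so any cell type of the region or of its borders can be in it, and fewer cells of a type and less RNA per cell cannot be told apart.

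The mPFC is a layered cortex whose main neurons are glutamatergic pyramidal cells, accompanied by local GABAergic interneurons. The striatum has no layers and no glutamatergic neurons of its own. Most of its neurons are GABAergic medium spiny neurons, which carry either D1 dopamine receptors (the direct pathway) or D2 dopamine receptors (the indirect pathway), and a small population of cholinergic interneurons lies among them. In the mouse, the second postnatal week is a time of rapid synapse formation and of early myelination, and the wall of the lateral ventricle that borders the striatum still produces new neurons and glia.

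Between 77778136 and 116702588 reads per sample were assigned to genes, and between 17748 and 18878 genes per sample had at least 10 reads. The first principal component of the 10 samples took 68.5% of the variance and the regions did not overlap on it. Levels of 4 Y-linked genes matched the stated sex in 10 of 10 samples. Certain samples stood apart in what tissue they held. The striatum samples of mice 1 and 4 contained choroid plexus genes, striatum 1 also contained genes of the thalamus and had the lowest medium spiny neuron levels, and striatum 2 had the highest levels of several pyramidal neuron genes. Results are therefore given with all 5 mice and, where they differ, without mice 1 and 4. The mPFC sample of mouse 4 was the highest of its group for a set of synaptic genes, and in mPFC 4 the animal's sex and the sample cannot be told apart.

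Of 19043 genes tested, 9503 (49.9%) differed between the regions at an adjusted p under 0.05 in edgeR's quasi-likelihood test with the mouse as a block. Of these, 4638 (24.4% of those tested) were higher in mPFC and 4865 (25.5%) were higher in striatum. At least a 2-fold difference was met by 3334 genes (17.5%), 1378 higher in mPFC (7.24%) and 1956 in striatum (10.3%). In 7807 genes (41%) the 5 mPFC values and the 5 striatum values did not overlap. These shares over all genes tested apply to every list count below, also where they are not repeated. The gene lists were chosen with earlier results of these data known, so their counts give no independent evidence of a separation. The median log2 difference over all tested genes was -0.02. All log2 differences are given as mPFC minus striatum, and all levels are CPM, counts per 1000000 reads of the gene table scaled by TMM factors, a level that depends on transcript length and is compared only between samples of the same gene. Without mice 1 and 4, 8007 of 18437 genes (43.4%) passed, 4238 of them higher in mPFC (23%) and 3769 in striatum (20.4%). Of the genes called with all mice, 7199 were also called without mice 1 and 4, and all 7199 kept their sign.

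Among protein-coding genes with a mean of at least 1 CPM, the same sign in all 5 mice, no overlap between the groups and a call also without mice 1 and 4, the largest differences toward mPFC were those of *Dmrt2*, *Neurod6*, *Ovol2*, *Amdhd1*, *Rspo2* and *Ccdc129*, between 5.31 and 6.75 on the log2 scale. *Neurod6* (ENSMUSG00000037984, chromosome 6, 55677818 to 55681263, GRCm38), a transcription factor of pyramidal neurons, had 186, 156, 178, 169 and 198 CPM in mPFC 1 to 5 and 0.907, 9.38, 2.54, 1.29 and 1.69 CPM in the striatum samples of the same mice. Its difference was 6.35 (SE 0.59, adjusted p = 3.2e-04). All mPFC values lay far above all striatum values, of which striatum 2 was the highest. *Rspo2* (ENSMUSG00000051920, chromosome 15, 43020811 to 43170818), which encodes a secreted amplifier of Wnt signalling, had 26.0, 26.5, 29.3, 25.8 and 33.0 CPM in mPFC and 0.716, 1.66, 0.730, 0.403 and 0.405 CPM in striatum (5.33, SE 0.36, adjusted p = 1.2e-04). *Dmrt2* (ENSMUSG00000048138, chromosome 19, 25672420 to 25679010), a transcription factor gene, had 4.43, 4.02, 4.76, 6.36 and 10.9 CPM in mPFC and at most 0.148 CPM in striatum (6.75, SE 0.52, adjusted p = 1.7e-04). The sample mPFC 5 was the highest for *Dmrt2* and *Rspo2*.

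Toward the striatum, the corresponding genes were *Tmem212*, *Otx2*, *Sntn*, *Isl1*, *Zfp474* and *Six3*. *Isl1* (ENSMUSG00000042258, chromosome 13, 116298281 to 116309689), a transcription factor of developing direct pathway and cholinergic neurons, had 19.1, 21.4, 25.4, 23.8 and 24.1 CPM in striatum and 0 to 0.114 CPM in mPFC (-9.23, SE 0.50, adjusted p = 7.8e-05). The 5 striatum samples lay close together. *Six3* (ENSMUSG00000038805, chromosome 17, 85613608 to 85629302), a forebrain transcription factor gene, had 3.10, 4.16, 3.05, 2.97 and 4.09 CPM in striatum. In mPFC it had 3 reads in all, against 1767 in striatum, a ratio of 519 with an exact 95% interval of 177 to 2520 for counting error only. *Tmem212*, *Sntn* and *Zfp474* are genes of ciliated cells. For *Sntn*, 1 read in mPFC stood against 1171 in striatum (ratio 1030, interval 185 to 40800), and for *Zfp474* 2 reads stood against 1867 (ratio 823, interval 227 to 6800). *Otx2*, a transcription factor of the choroid plexus among other tissues, had 21.1, 1.04, 5.26, 12.9 and 2.45 CPM in striatum and at most 0.0367 CPM in mPFC, and the 2 highest striatum samples were those of mice 1 and 4.

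**Figure D1:**
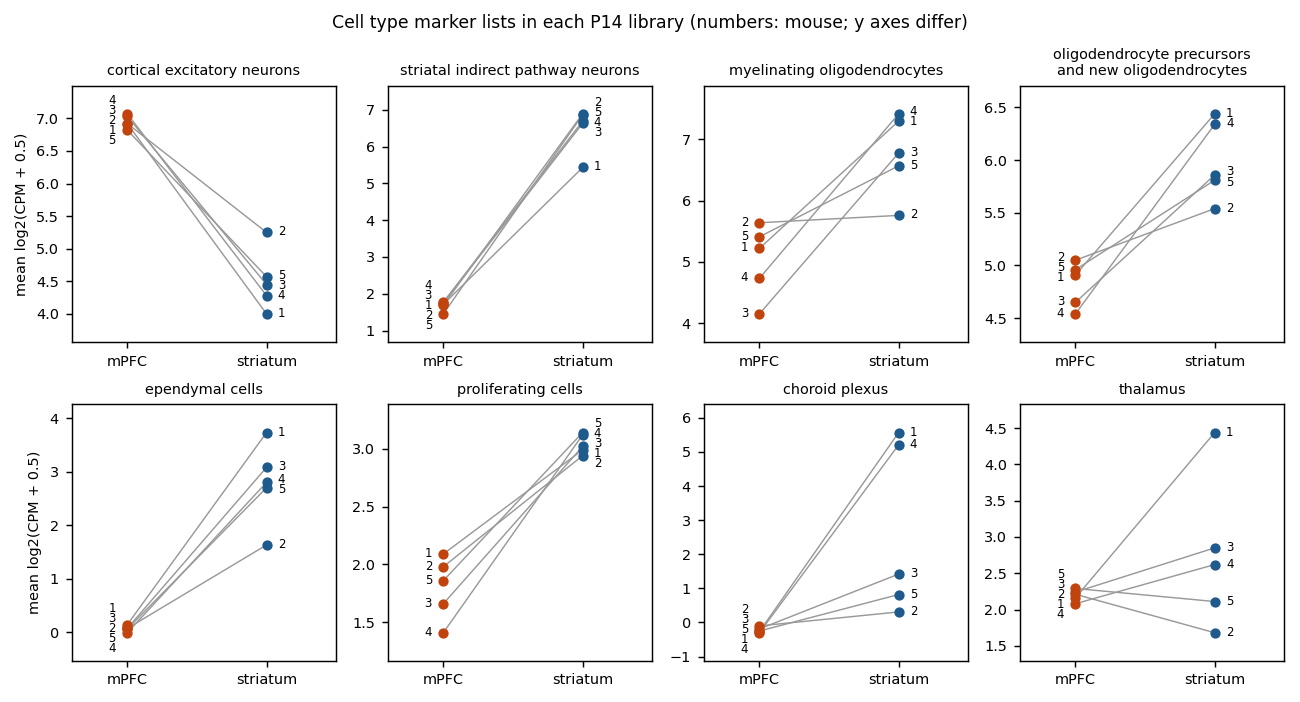
Mean level of 8 marker lists in each P14 sample, as the mean of log2(CPM + 0.5) over the genes of a list, with the 5 mPFC samples and the 5 striatum samples as points numbered by mouse. Pyramidal neuron genes were higher in every mPFC sample and indirect pathway genes in every striatum sample, while the choroid plexus list was high in striatum 1 and 4.

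Genes of pyramidal neurons were higher in mPFC. Of 20 markers of cortical excitatory neurons, 17 were higher in mPFC and 1 in striatum, with a median log2 difference of 2.66, beside 24.4% and 25.5% and a median of -0.02 over all genes tested. *Slc17a7*, the vesicular glutamate transporter of cortical neurons, had 861, 973, 962, 1019 and 986 CPM in mPFC and 20.7, 140, 34.5, 17.1 and 34.9 CPM in striatum (4.78, SE 0.48, adjusted p = 4.3e-04). Striatum 2 was the highest striatum sample and still lay below every mPFC sample. *Neurod2*, a relative of *Neurod6*, showed a difference of 4.81 (SE 0.51). *Emx1*, which marks the dorsal telencephalon, had 9.75 to 13.4 CPM in mPFC and 0.490 to 2.17 CPM in striatum (3.65, SE 0.33). The member higher in striatum was *Arpp21*, which encodes a phosphoprotein regulated by cAMP and is known from medium spiny neurons too. It had 567, 545, 571, 678 and 521 CPM in mPFC and 476, 1361, 864, 1056 and 1034 CPM in striatum (-0.66, SE 0.21, adjusted p = 0.0379). Only striatum 1 was below the mPFC samples, and the call was lost without mouse 2, 3, 4 or 5. In mice 2, 3 and 5 alone, 15 members were higher in mPFC and 2 in striatum, with a median of 2.42.

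Deep layer and upper layer genes of the cortex were listed apart. Deep layer genes were mostly higher in mPFC, with 11 of 16 higher there and 3 higher in striatum (median 1.44). Without mice 1 and 4 the counts were 8 and 3 (median 1.14). *Fezf2*, which specifies deep layer neurons that project below the cortex, had 40.1, 42.7, 43.7, 54.9 and 67.0 CPM in mPFC and 0.698, 2.03, 2.41, 0.752 and 1.23 CPM in striatum (5.24, SE 0.37, adjusted p = 1.3e-04). *Tbr1*, a transcription factor of layer 6, differed by 4.06 (SE 0.48), and *Ctgf*, a marker of subplate neurons, by 2.51 (SE 0.35). The deep layer genes higher in striatum were *Foxp2* (-1.86, SE 0.16), *Bcl11b* (-1.58, SE 0.22) and *Syt6* (-0.87, SE 0.25), of which *Foxp2* and *Bcl11b* are transcription factors that medium spiny neurons also use. *Bcl11b* had 52.4, 58.0, 58.0, 83.8 and 85.8 CPM in mPFC against 81.7, 269, 213, 213 and 298 CPM in striatum, so that only striatum 1 overlapped with mPFC. Of 11 upper layer genes, 3 were higher in mPFC, 3 in striatum and 5 were not called, with a median of 0.03. These counts lay near the shares of 24.4% and 25.5% of all genes. The upper layer counts were 1 and 2 without mice 1 and 4 (median -0.34), 2 and 1 without mouse 1, 3 and 1 without mouse 2 and 5 and 1 without mouse 5. *Rasgrf2*, a Ras exchange factor of upper layers, was higher in mPFC (1.43, SE 0.15), as was *Cux2* (1.23, SE 0.28), and *Cux1* was higher in striatum (-0.81, SE 0.09). Mouse 5 had the lowest *Cux2* level of the mPFC samples, 22.4 CPM against 48.9 to 61.1 CPM in the others, and without mice 1 and 4 the adjusted p of *Cux2* was 0.0888.

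Like the other lists, transcription factors were listed as cortical or striatal with earlier results of these data known, so their counts give no independent evidence of a separation. Of 23 cortical transcription factors, 17 were higher in mPFC, 1 (*Cux1*) was higher in striatum and 5 were not called (median 1.47), beside 24.4% and 25.5% of all genes. Of 21 striatal transcription factors, 20 were higher in striatum and none in mPFC, with a median of -1.91. *Dlx1*, which specifies forebrain GABAergic neurons, was not called (-0.72, SE 0.27, adjusted p = 0.0639). Beside *Isl1* and *Six3*, the largest differences were those of *Rxrg* (-4.77, SE 0.38) and *Rarb* (-4.31, SE 0.26), receptors of the retinoid family. *Dlx5* (-1.88, SE 0.20) and *Ikzf1* (-1.14, SE 0.21) were smaller. Without mice 1 and 4 the cortical list gave 15 and 1, and the striatal list again 20 of 21.

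Medium spiny neuron genes were higher in striatum in all 5 mice. The direct pathway list had 7 of 9 genes higher in striatum and none in mPFC (median -1.86), and the indirect pathway list 5 of 5 (median -5.41), beside 25.5% of all genes. *Drd1*, the D1 receptor, had 30.1, 28.8, 23.3, 27.5 and 44.8 CPM in mPFC and 164, 478, 339, 418 and 399 CPM in striatum (-3.50, SE 0.26, adjusted p = 1.6e-04). *Drd2*, the D2 receptor, had 0.849, 0.789, 0.780, 1.21 and 0.897 CPM in mPFC and 25.3, 80.3, 64.3, 70.7 and 74.4 CPM in striatum (-6.04, SE 0.28, adjusted p = 6.5e-05). Neither receptor overlapped between the regions, and for both the lowest striatum sample was that of mouse 1. *Adora2a*, an adenosine receptor of the indirect pathway, had 1.59 to 2.35 CPM in mPFC and 94.6, 298, 237, 284 and 285 CPM in striatum (-6.84, SE 0.37). *Slc35d3*, a direct pathway gene, differed by -5.26 (SE 0.30), and *Pdyn*, the precursor of dynorphin, by only -0.95 (SE 0.14). The direct pathway members *Eya1* (-0.13, adjusted p = 0.443) and *Sfxn1* (-0.03, adjusted p = 0.688) were not called. Without mice 1 and 4 the medians were -2.15 and -5.64.

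The machinery that carries dopamine signals in these neurons followed the same direction. Of 18 genes of dopamine and cAMP signalling, 15 were higher in striatum and none in mPFC, beside 25.5% and 24.4% of all genes. The median was -3.12. *Ppp1r1b*, which encodes the phosphatase inhibitor DARPP-32, had 30.6, 37.3, 20.6, 20.2 and 32.5 CPM in mPFC and 326, 1091, 809, 902 and 999 CPM in striatum (-4.82, SE 0.34, adjusted p = 1.3e-04). *Rgs9* differed by -4.52 (SE 0.26) and the phosphodiesterase gene *Pde10a* by -4.27 (SE 0.30). *Scn4b*, a sodium channel subunit, had 11.6 to 20.5 CPM in mPFC and 205 to 897 CPM in striatum (-5.16, SE 0.40). Striatum 1 was the lowest of its group for each of these genes and still above every mPFC sample. The summed level of the indirect pathway list was 18.7 to 28 CPM in mPFC and 522 to 1460 CPM in striatum.

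**Figure D2:**
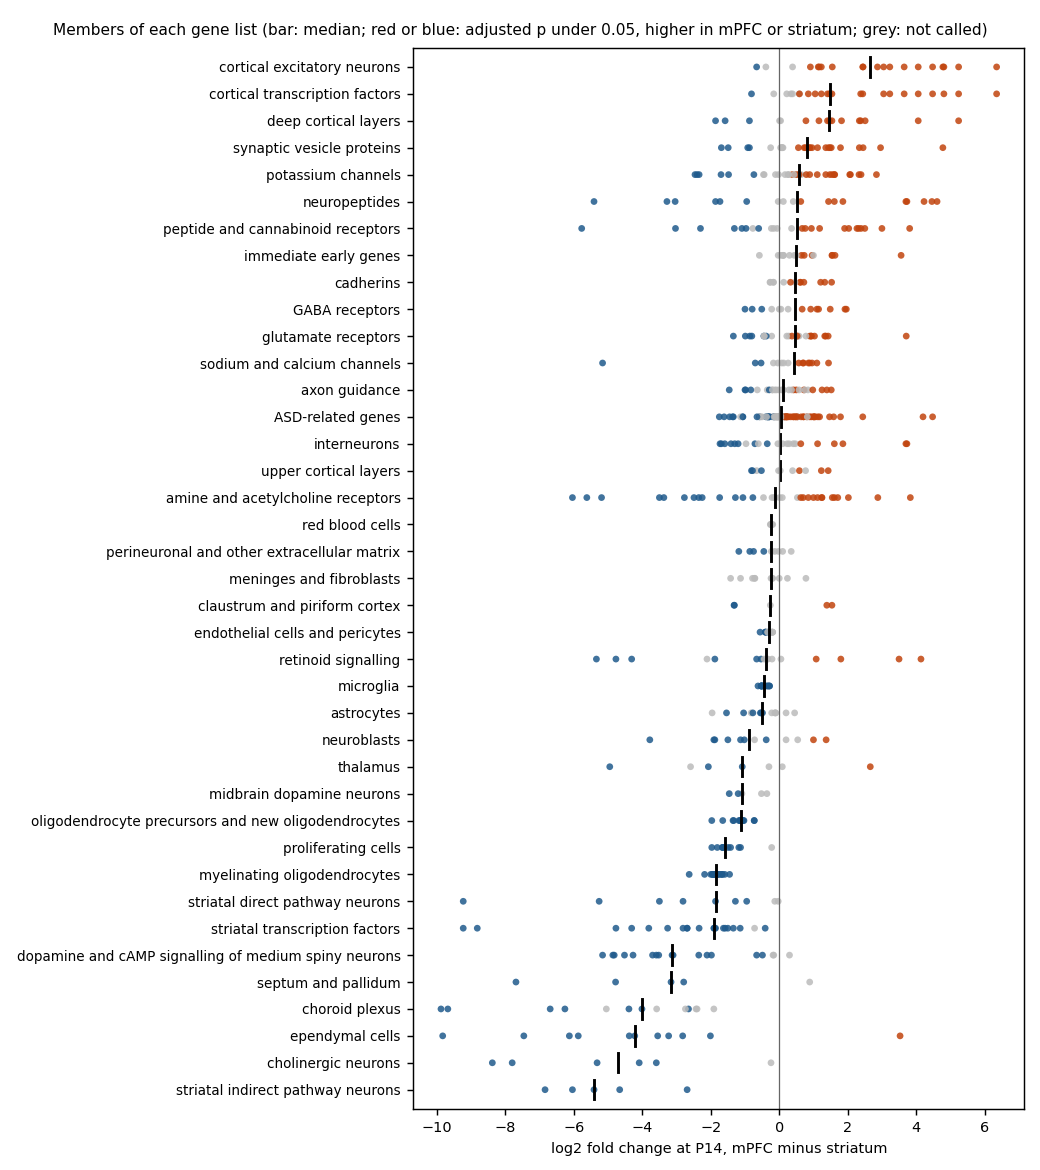
Log2 difference (mPFC minus striatum) of each tested member of the gene lists as a point, red or blue where called higher in mPFC or striatum and grey where not called, with the median of the list as a black bar. Excitatory neuron genes lay mostly above 0 and medium spiny neuron, glial and ependymal genes mostly below 0.

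Cholinergic neuron genes were higher in striatum for 5 of 6 members (median -4.71), beside 25.5% of all genes. *Chat*, the enzyme that makes acetylcholine, had 0.465, 0.526, 0.684, 0.306 and 0.136 CPM in mPFC and 7.46, 18.7, 17.7, 20.6 and 21.6 CPM in striatum (-5.32, SE 0.47, adjusted p = 2.7e-04). *Lhx8*, a transcription factor of these neurons, had 5.41 to 8.2 CPM in striatum and at most 0.0582 CPM in mPFC (-8.38, SE 0.48). *Slc5a7*, the choline transporter, differed by -3.59 (SE 0.15). Striatum 1 was the lowest striatum sample for *Chat*, *Lhx8* and *Slc5a7*. *Ngfr*, a neurotrophin receptor, was not called (-0.24, adjusted p = 0.658).

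Of 22 interneuron genes, 6 were higher in mPFC, 8 in striatum and 8 were not called (median 0.03), beside 24.4% and 25.5% of all genes. Without mouse 3, 4 or 5, 5 were higher in striatum. *Vip*, a peptide of cortical interneurons, had 56.2, 54.8, 54.6, 42.4 and 26.7 CPM in mPFC and 1.87, 10.8, 1.75, 2.46 and 5.45 CPM in striatum (3.70, SE 0.52, adjusted p = 0.00155). *Cck*, a peptide of interneurons and of many pyramidal neurons, differed by 3.73 (SE 0.35) and *Crh* by 1.86 (SE 0.22). The GABA synthesis genes lay the other way, with *Gad2* at 138 to 167 CPM in mPFC and 325 to 442 CPM in striatum (-1.41, SE 0.10), and they mark medium spiny neurons as well as interneurons. *Sst*, the somatostatin gene, was 1 of the smaller differences toward mPFC (0.63, SE 0.10). *Pvalb*, the marker of fast-spiking interneurons, had 17.6, 20.2, 9.96, 15.9 and 8.84 CPM in mPFC and 53.0, 3.16, 5.71, 18.8 and 5.03 CPM in striatum and was not called (0.47, adjusted p = 0.528). Striatum 1 lay above every mPFC sample, striatum 4 within their range and the other striatum samples below it.

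Genes of myelinating oligodendrocytes were higher in striatum with all mice, and most lost their call without mice 1 and 4. With all mice, 19 of 19 members were higher in striatum (median -1.84), beside 25.5% of all genes. *Mbp*, the myelin basic protein gene, had 1472, 2089, 677, 1170 and 1720 CPM in mPFC and 7557, 2501, 4774, 8218 and 3957 CPM in striatum (-1.91, SE 0.42, adjusted p = 0.00946). The striatum samples of mice 1 and 4 were the highest and the groups did not overlap. *Mog*, the myelin oligodendrocyte glycoprotein gene, had 52.0, 71.8, 19.5, 34.2 and 58.4 CPM in mPFC and 241, 69.5, 153, 261 and 133 CPM in striatum (-1.88, SE 0.48, adjusted p = 0.0163). Striatum 2 fell within the range of mPFC, and within mouse 2 the 2 regions had nearly the same *Mog* level. With mouse 1 or mouse 4 left out, 12 were called. Without mice 1 and 4 the median was -1.34 and 1 of 19 members was called, *Myrf*, the transcription factor that drives myelination (-1.4, adjusted p = 0.0423). For *Mbp* the difference was then -1.4 with an adjusted p of 0.0858, and for *Mog* -1.34 with an adjusted p of 0.137. The largest differences with all mice were those of *Klk6* (-2.63), *Gjb1* (-2.18) and *Mobp* (-2.0). The summed level of the list was 2010 to 6500 CPM in mPFC and 7240 to 24100 CPM in striatum.

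Genes of precursors and new oligodendrocytes were higher in striatum with and without those mice. All 14 members were higher in striatum (median -1.12), beside 25.5% of all genes. All 14 were without overlap between the groups, beside 41% of all genes, and 13 of 14 were called without mice 1 and 4 (median -0.83). *Pdgfra*, the growth factor receptor of precursors, had 129, 129, 124, 110 and 121 CPM in mPFC and 250, 173, 188, 238 and 176 CPM in striatum (-0.73, SE 0.11, adjusted p = 0.00236). *Olig2*, the lineage transcription factor, had 16.5, 17.5, 12.7, 11.9 and 17.7 CPM in mPFC and 41.6, 23.8, 32.9, 41.2 and 29.8 CPM in striatum (-1.14, SE 0.20, adjusted p = 0.00350). In both genes striatum 1 and 4 were the highest, and the other striatum samples were also above every mPFC sample. *Tcf7l2*, a transcription factor of new oligodendrocytes that thalamic neurons also use, had 26.8, 3.04, 3.92, 8.71 and 4.00 CPM in striatum (-1.97, and -1.11 without mice 1 and 4). *Enpp6*, a marker of newly formed oligodendrocytes, was the member not called without mice 1 and 4 (-1.10, adjusted p = 0.0604).

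**Figure D3:**
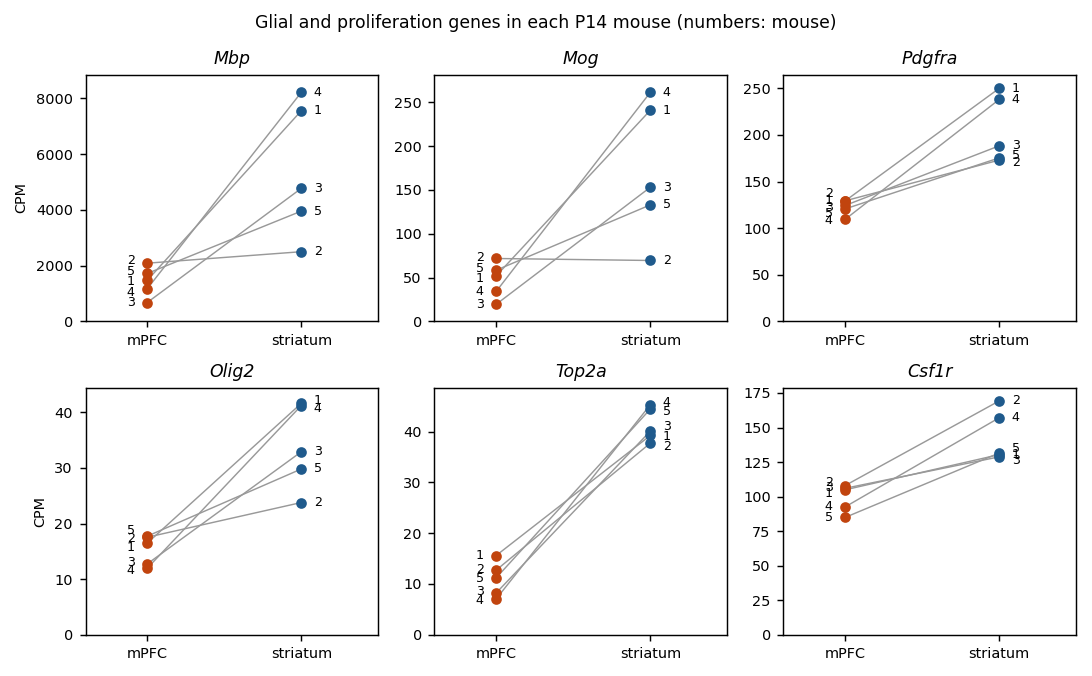
CPM of *Mbp*, *Mog*, *Pdgfra*, *Olig2*, *Top2a* and *Csf1r* in the 10 samples, with a line joining the mPFC and striatum samples of each mouse. *Pdgfra*, *Olig2*, *Top2a* and *Csf1r* were higher in striatum in all 5 mice, and the highest *Mbp* and *Mog* levels were those of striatum 1 and 4.

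Microglial genes showed small and even differences. Of 15 members, 14 were higher in striatum (median -0.45) and 13 were so without mice 1 and 4. This count and those of the next lists stand beside 24.4% of all genes higher in mPFC and 25.5% higher in striatum. *Csf1r*, the receptor on which microglia depend, had 105, 108, 106, 92.5 and 84.9 CPM in mPFC and 130, 169, 129, 157 and 132 CPM in striatum (-0.53, SE 0.09, adjusted p = 0.00300). *Trem2* differed by -0.62 (SE 0.11) and *Cx3cr1*, the fractalkine receptor, by -0.51 (SE 0.08). The groups did not overlap for any of these 3 genes. *Aif1*, which encodes IBA1, was not called (-0.30, adjusted p = 0.0801). Among 15 astrocyte genes, 6 were higher in striatum and none in mPFC (median -0.50), against 4 without mice 1 and 4 (median -0.20) and 10 without mouse 2. The list was led by *Slc4a4*, a bicarbonate transporter (-1.54, SE 0.14). The water channel gene *Aqp4* (-0.50, adjusted p = 0.0795) and *Aldh1l1* (-0.13, adjusted p = 0.294) were not called. Of 14 endothelial and pericyte genes, 7 were higher in striatum (median -0.31), against 1 without mice 1 and 4, 4 without mouse 3 and 3 without mouse 4 or mouse 5. No gene of the 11 for meninges and fibroblasts or of the 5 for red blood cells was called by edgeR, and the counts at an unadjusted p under 0.05 and by DESeq2 were also 0 in both lists. Without mouse 3, 2 of the meninges genes were called higher in striatum.

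Genes of dividing cells and of young neurons were mostly higher in striatum. Counts of both lists stand beside 24.4% of all genes higher in mPFC and 25.5% higher in striatum. Of 10 proliferation genes, 9 were higher in striatum (median -1.57), and 9 were so without mice 1 and 4. *Top2a*, a topoisomerase of dividing cells, had 15.6, 12.7, 8.22, 7.05 and 11.2 CPM in mPFC and 39.2, 37.7, 40.1, 45.3 and 44.4 CPM in striatum (-1.97, SE 0.20, adjusted p = 4.5e-04). *Mki67* differed by -1.65 (SE 0.16). The striatum values of both lay close together and far from mPFC, and *Ccnb1* was the member not called (-0.22, adjusted p = 0.292). Of 12 neuroblast genes, 7 were higher in striatum, 2 in mPFC and 3 were not called (median -0.87). *Igfbpl1*, a marker of young migrating neurons, had 1.2, 0.969, 0.219, 0.281 and 1.61 CPM in mPFC and 8.71, 8.93, 17.9, 5.05 and 12.8 CPM in striatum (-3.78, SE 0.54, adjusted p = 0.00162). *Dlx2* (-1.50, SE 0.34) and *Sox11* (-1.02, SE 0.13), transcription factors of new neurons, were also higher in striatum. The members higher in mPFC were *Cd24a* (1.37, SE 0.07) and *Dpysl3* (1.00, SE 0.18), both of which are also used by maturing neurons.

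Genes of the ciliated ependymal cells that line the ventricle were low in all mPFC punches. Of 11 ependymal genes, 10 were higher in striatum, beside 25.5% of all genes. All 11 did not overlap between the groups (41% of all genes), with a median of -4.22 and of -3.69 without mice 1 and 4. *Foxj1*, the master regulator of motile cilia, had 1.81, 2.38, 1.68, 1.82 and 1.92 CPM in mPFC and 35.9, 9.23, 29.8, 22.4 and 23.4 CPM in striatum (-3.55, SE 0.36, adjusted p = 4.3e-04). *Tmem212* had 18.5, 2.41, 10.2, 7.63 and 7.94 CPM in striatum and no read in 4 of the 5 mPFC samples. *Ccdc153* differed by -7.46 (SE 0.48) and *Ak7* by -6.13 (SE 0.33). Striatum 2 was the lowest of its group for *Foxj1*, *Tmem212*, *Ccdc153* and *Ak7*, and the list's summed level was 8 to 9.38 CPM in mPFC and 37 to 200 CPM in striatum. *Spag6l* lay the other way, with 2.58 to 3.31 CPM in mPFC and 0.188 to 0.278 CPM in striatum (3.53, SE 0.15). Its relative *Spag6* was higher in striatum (-1.05), and how reads were divided between these genes was not tested.

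Genes of the choroid plexus, the tissue that secretes cerebrospinal fluid, were high in striatum 1 and 4. Its 13 marker genes summed to 4.94 to 6.74 CPM in mPFC and to 21 to 4840 CPM in striatum. *Ttr*, the transthyretin gene, had 4460, 0.0618, 17.9, 3529 and 1.14 CPM in striatum and 0.0964 to 0.623 CPM in mPFC. *Folr1*, a folate receptor, had 53.6, 0.531, 2.18, 40.6 and 1.26 CPM in striatum, and *Kl*, the klotho gene, had 54.6, 2.60, 1.72, 47.0 and 2.00 CPM there. For all 3 genes striatum 1 and 4 stood far above the other striatum samples. With all mice 7 of the 13 genes were higher in striatum (median -4.01), beside 25.5% of all genes. With mouse 1 or mouse 4 left out 4 were. Without mice 1 and 4, 3 of 13 were (median -1.14), among them *Clic6*, a chloride channel protein (-5.79), and *F5*, coagulation factor V (-1.13). *Ttr* was called with all mice (-9.88, SE 3.07, adjusted p = 0.0342) and not without mice 1 and 4 (adjusted p = 0.313), and *Kl* was not called in either case. Over all genes, 2304 of the called genes were not called without mice 1 and 4, and 808 were called only without them. Of the first kind the largest differences were those of *Ttr*, *Wdr72* (-7.22, with too few reads to be tested without those mice) and *Folr1* (-6.26, and -3.49 with an adjusted p of 0.0544 without them). Of the second kind, *Fap* moved from 1.67 to 2.85, *Cbln1*, a synapse organizer, from 1.53 to 2.72 and *Esrrb*, an orphan nuclear receptor, from 0.80 to 2.33, and for these 3 genes striatum 1 was the highest striatum sample. The part of choroid plexus tissue in the differences of other genes was not tested beyond leaving these mice out.

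Genes of neighbouring structures varied by sample. Counts of these lists stand beside 24.4% of all genes higher in mPFC and 25.5% higher in striatum. *Slc17a6*, the glutamate transporter of thalamic neurons, had 341, 4.70, 43.8, 48.2 and 7.66 CPM in striatum and 27.3 to 35.7 CPM in mPFC, and was not called (0.09, adjusted p = 0.946). *Lhx9*, a thalamic transcription factor, had 25.0, 0, 2.46, 2.10 and 0.0942 CPM in striatum. Striatum 1 was the highest for both. Of the 7 thalamus genes, 3 were higher in striatum (*Gbx2*, *Prkcd* and *Lef1*) and 1 in mPFC (*Ramp3*, 2.66). In the septum and pallidum list 4 of 5 genes were higher in striatum. *Zic1*, a transcription factor of the septum, had 178, 16.2, 178, 31.0 and 98.2 CPM in striatum and 4.71 to 12.4 CPM in mPFC (-3.16, SE 0.58), and *Nkx2-1*, which specifies pallidal and some striatal neurons, had 1 read in mPFC against 374 in striatum (ratio 330, interval 58.8 to 13100). Of the 5 claustrum and piriform genes, *Nr4a2* (1.54) and *Ntng2* (1.39) were higher in mPFC and *Synpr* (-1.32) and *Oprk1* (-1.31) in striatum, and neither of the first pair was called without mouse 1, mouse 4 or mouse 5. For *Nr4a2* and *Ntng2*, striatum 2 was the highest striatum sample. Of 5 midbrain dopamine neuron genes tested, *Ddc* (-1.46, and -1.01 with an adjusted p of 0.0624 without mice 1 and 4) and *Th* (-1.2) were higher in striatum. *Ddc* was highest in striatum 1 and 4, with 30.1 and 28.1 CPM. *En1*, *Foxa1*, *Foxa2* and *Pitx3* had too few reads to be tested. Which cells held these transcripts was not tested.

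Genes outside the cell type lists were grouped by function. Their counts stand beside 24.4% of all genes higher in mPFC and 25.5% higher in striatum. Among 17 immediate early genes, which neurons switch on with activity, 7 were higher in mPFC and none in striatum (median 0.50), and without mice 1 and 4 the counts were 6 and 2 (median 0.09). *Bdnf*, a growth factor gene, had 46.5, 42.7, 49.6, 48.3 and 45.1 CPM in mPFC and 11.1, 5.05, 3.04, 2.35 and 2.32 CPM in striatum (3.56, SE 0.38, adjusted p = 5.2e-04). *Fos* had 36.9, 34.0, 24.4, 49.5 and 26.5 CPM in mPFC and 12.2, 10.6, 10, 11.5 and 12.2 CPM in striatum (1.55, SE 0.14, adjusted p = 3.2e-04). Neither gene overlapped between the regions. *Nptx2*, a synaptic pentraxin, differed by 1.63 (SE 0.12), while *Egr1* (0.11, adjusted p = 0.805) and *Arc* (0.04, adjusted p = 0.876) were not called. *Egr1* was called toward the striatum without mice 1 and 4 (-0.52, adjusted p = 0.00529). Its level in mPFC 4 was 102 CPM, against 31.7 to 36.0 CPM in the other mPFC samples.

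Of 24 glutamate receptor genes, 11 were higher in mPFC and 6 in striatum (median 0.45), beside 24.4% and 25.5% of all genes. Without mice 1 and 4 the counts were 11 and 9 (median 0.22). *Grm2*, a presynaptic metabotropic receptor, had 21.2, 24.3, 23.9, 47.8 and 23.8 CPM in mPFC and 7.46, 1.58, 1.94, 2.05 and 0.810 CPM in striatum (3.71, SE 0.52). *Grin2a* (1.43, SE 0.18) and *Grin3a* (1.36), subunits of NMDA receptors, were also higher in mPFC, and *Grm4* (-1.34, SE 0.25) was higher in striatum. Of 14 GABA receptor genes, 7 were higher in mPFC and 3 in striatum (median 0.46). *Gabbr2*, a subunit of GABA-B receptors, had 373, 413, 433, 514 and 432 CPM in mPFC and 110, 128, 113, 88.4 and 116 CPM in striatum (1.96, SE 0.13). *Gabra3* (1.92, SE 0.14) lay with it, and *Gabrd*, a subunit of extrasynaptic receptors, was higher in striatum (-1.0, SE 0.19).

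Amine and acetylcholine receptors divided evenly, with 13 of 33 higher in each region (median -0.11), beside 24.4% and 25.5% of all genes. The noradrenaline receptor genes *Adra1d* (3.83, SE 0.33), *Adra1b* (2.88, SE 0.14) and *Adra1a* (2.02) were higher in mPFC, and *Adra2b* was higher in striatum (-5.62, SE 0.37). *Adra2b* had 0.0367 to 0.168 CPM in mPFC and 5.30, 3.63, 6.83, 6.44 and 5.41 CPM in striatum. Of the serotonin receptors, *Htr2a* was higher in mPFC (1.61, SE 0.11) and *Htr2c* (-2.35, SE 0.21) and *Htr1d* (-3.37, SE 0.26) were higher in striatum. *Drd3*, the D3 dopamine receptor, stayed under 2 CPM in all samples and was higher in striatum (-5.19, SE 0.59).

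Of 24 peptide and cannabinoid receptor genes, 12 were higher in mPFC and 7 in striatum (median 0.52), beside 24.4% and 25.5% of all genes. *Cckbr*, a receptor of cholecystokinin, had 53.7, 57.3, 70.0, 62.9 and 70.6 CPM in mPFC and 4.03, 7.89, 4.96, 2.92 and 3.78 CPM in striatum (3.81, SE 0.24, adjusted p = 9.6e-05). The somatostatin receptor genes *Sstr3* (3.00), *Sstr1* (2.50), *Sstr4* (2.32) and *Sstr2* (2.03) were all higher in mPFC. *Galr1*, a galanin receptor (-5.77, SE 0.26), and *Tacr1*, the substance P receptor (-3.03, SE 0.26), were higher in striatum. Of 18 neuropeptide genes, 9 were higher in mPFC and 6 in striatum (median 0.52). *Adcyap1*, which encodes PACAP, had 54.3, 49.7, 57.9, 54.3 and 54.5 CPM in mPFC and 4.52, 3.32, 1.55, 1.46 and 1.46 CPM in striatum (4.61, SE 0.33, adjusted p = 1.4e-04). *Cort* (4.46) and *Grp* (4.23) were also higher in mPFC, and *Nts*, the neurotensin gene, was higher in striatum (-3.04, SE 0.44).

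Among 33 potassium channel genes tested, 17 were higher in mPFC and 6 in striatum (median 0.57), beside 24.4% and 25.5% of all genes. Without mice 1 and 4 the counts were 14 and 6 (median 0.29). *Kcnh7* had 232, 234, 205, 325 and 201 CPM in mPFC and 34.9, 47.9, 27.4, 25.3 and 33.5 CPM in striatum (2.84, SE 0.20). *Kcna5* was higher in striatum (-2.46, SE 0.24). Of 16 sodium and calcium channel genes, 8 were higher in mPFC and 3 in striatum (median 0.42, and 0.11 without mice 1 and 4), against 5 and 2 without mouse 1 or mouse 5, with *Cacna1g*, a T-type calcium channel, at 1.44 (SE 0.38) and the *Scn4b* subunit at the other end. Of 26 synaptic vesicle genes, 16 were higher in mPFC and 4 in striatum (median 0.82), and without mice 1 and 4 the counts were 15 and 5. *Stx1a*, a syntaxin of the release machinery, had 434 to 501 CPM in mPFC and 47.4 to 91.9 CPM in striatum (2.96, SE 0.16). *Sv2b* differed by 2.45 (SE 0.14) and its relative *Sv2c* by -1.49 (SE 0.23), and *Slc32a1*, the transporter that loads GABA into vesicles, by -1.69 (SE 0.16).

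Of 16 genes of retinoid signalling, 4 were higher in mPFC and 6 in striatum (median -0.40), beside 24.4% and 25.5% of all genes. *Cyp26b1*, the enzyme that degrades retinoic acid, had 29.5, 33.7, 55.3, 28.4 and 31.2 CPM in mPFC and 3.97, 0.939, 1.4, 3.70 and 1.26 CPM in striatum (4.14, SE 0.47, adjusted p = 6.4e-04). *Crabp1*, a retinoic acid binding protein, had 0.307 to 0.455 CPM in mPFC and 11.1, 20.9, 13.2, 21.0 and 15.8 CPM in striatum (-5.34, SE 0.17, adjusted p = 5.2e-05). The groups of both genes lay far apart. *Aldh1a3*, a synthesis enzyme, was higher in mPFC (3.50, SE 0.86), although mPFC 5 had 0.806 CPM against 6.21 to 8.76 CPM in the others, and without mice 1 and 4 its adjusted p was 0.0656. Of 13 cadherin genes, which encode adhesion molecules, 7 were higher in mPFC and none in striatum (median 0.46), led by *Cdh18* (1.53), *Cdh12* (1.33) and *Cdh10* (1.21). Of 27 axon guidance genes, 7 were higher in mPFC, among them *Slit1* (1.52, SE 0.33), and 5 in striatum, among them *Ntn1* (-1.46, SE 0.11), with a median of 0.11, beside 24.4% and 25.5% of all genes. Mice 2, 3 and 5 alone gave 5 and 7 of these genes and a median of -0.08. Of 9 genes of the extracellular matrix, 4 were higher in striatum, among them *Vcan* (-1.18, SE 0.13) and *Bcan* (-0.86, SE 0.11), and none in mPFC (median -0.23, and -0.35 without mice 1 and 4).

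The study examined 100 genes related to autism spectrum disorder (ASD), a list taken from earlier publications. Of these, 96 were tested, 3 had too few reads, and 1 of 2 identifiers given for *Gatm* was not matched. At P14, 32 were higher in mPFC and 16 in striatum, which together are 48 of 96 genes beside 49.9% of all genes tested, and the median was 0.04. In mice 2, 3 and 5 alone, 29 and 16 were called. *Prss12*, a secreted protease of neurons, had 28.4, 29.9, 32.7, 33.3 and 43.7 CPM in mPFC and 1.39, 7.87, 1.48, 1.16 and 1.11 CPM in striatum (4.20, SE 0.52, adjusted p = 9.4e-04). *Mef2c*, an activity-dependent transcription factor, had 1507, 1329, 1461, 1639 and 1135 CPM in mPFC and 185, 316, 230, 298 and 292 CPM in striatum (2.44, SE 0.17, adjusted p = 1.3e-04). No sample of 1 region reached the other in these genes.

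*Acsl4*, a fatty acid ligase, differed by 1.47 (SE 0.07), *Shank2*, a scaffold of the postsynaptic density, by 1.13 (SE 0.21) and *Dmd*, the dystrophin gene, by 1.02 (SE 0.08). For several others mPFC 4 stood far above the rest of its group. *Syn1*, a synapsin that tethers synaptic vesicles, had 44.0, 50.6, 50.6, 203 and 70.3 CPM in mPFC and 14.7, 27.9, 18.4, 18.1 and 22.1 CPM in striatum (1.79, SE 0.36, adjusted p = 0.00652). The transcription factor *Nfix* had 26.9, 30.2, 28.2, 92.7 and 37.9 CPM in mPFC and 10.6 to 13.8 CPM in striatum (1.59, SE 0.31, adjusted p = 0.00569). *Syn1* (1.34) and *Nfix* (1.26) were also called without mice 1 and 4. *Iqsec2*, a postsynaptic gene, was called with all mice (1.00, SE 0.28, adjusted p = 0.0244) and at 0.51 without mice 1 and 4 (adjusted p = 0.0402). *Cacna1f*, a calcium channel gene of the retina, had at most 0.179 CPM in any sample and was not called (0.83, adjusted p = 0.117).

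Toward the striatum, *Ap1s2*, a subunit of a vesicle adaptor complex, had 26.2, 25.5, 22.5, 23.0 and 21.6 CPM in mPFC and 87.2, 66.1, 83.6, 85.0 and 79.1 CPM in striatum (-1.75, SE 0.09, adjusted p = 7.6e-05). *Gamt*, an enzyme of creatine synthesis, differed by -1.61 (SE 0.22), *Chd7*, a chromatin remodeller, by -1.45 (SE 0.14), *Tbx1* by -1.36 (SE 0.29), *Fgfr2* by -1.07 (SE 0.18) and *Nhs* by -1.06 (SE 0.12). *Foxp1*, a transcription factor of medium spiny neurons, had 85.3, 87.2, 94.4, 129 and 88.4 CPM in mPFC and 110, 321, 238, 297 and 329 CPM in striatum (-1.34, SE 0.23, adjusted p = 0.00334). Only striatum 1 lay within the range of mPFC, and without mice 1 and 4 the difference was -1.69. *Shank3*, a scaffold of striatal and cortical synapses, differed by -0.65 (SE 0.22, adjusted p = 0.0440) and by -1.03 without mice 1 and 4 (adjusted p = 0.00751). Of the genes not called, *Nlgn3* (0.08), *Tsc2* (0.05) and *Cntnap2* (-0.08) had differences near 0.

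**Figure D4:**
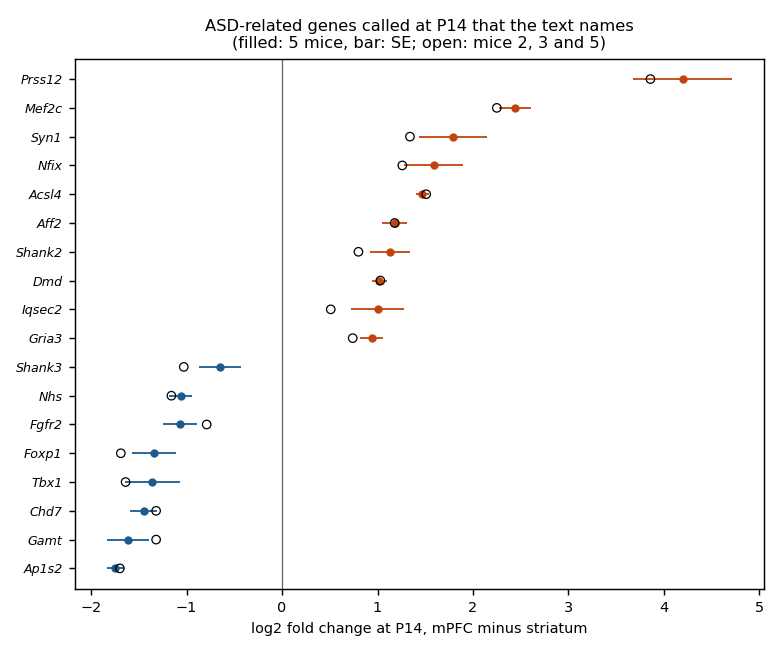
Log2 difference (mPFC minus striatum) of 18 ASD-related genes called at P14 and named in the text, with filled circles and standard errors for all 5 mice and open circles for mice 2, 3 and 5 only. 10 genes lay above 0 and 8 below 0.

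Antisense transcription was deposited as a second table, of contigs that the authors assembled from reads on the strand opposite to genes. Of 32333 contigs tested, 16468 (50.9%) differed between the regions, 9952 (30.8%) toward mPFC and 6516 (20.2%) toward striatum, with library sizes taken from the gene table. With library sizes of the contig table itself the split was 8217 and 8114, so the share higher in mPFC moved from 60.4% to 50.3% and the median over all contigs from 0.07 to -0.01. Contigs mostly followed their gene. Of 14598 contigs called together with their gene, 14565 (99.8%) had the same direction, and across 30144 contigs Pearson's r with the gene's difference was 0.97, as a description across contigs that share libraries. A median of 98.2% of a contig's length lay opposite annotated exons, and whether part of the reads counted as antisense came from the sense strand was not tested, which bears on every antisense value given here. The contigs of ASD-related genes numbered 271 in 77 genes, of which 107 were higher in mPFC and 36 in striatum, or 92 and 54 with library sizes of the contig table.

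The largest contig differences toward mPFC were those of a contig opposite *Ovol2* (6.25, SE 0.28), 2 contigs opposite *Fezf2* (5.46, SE 0.22, and 5.29, SE 0.38) and 1 opposite *Trbc2*, a T cell receptor constant gene (5.37, SE 0.26). The *Trbc2* contig was 79 bp long. The *Ovol2* contig (chromosome 2, 144330838 to 144332125, plus strand, GRCm38) had 2.15 to 2.76 CPM in mPFC and 0.00942 to 0.0494 CPM in striatum. Toward striatum, contigs assigned to *Dnah1*, a dynein of cilia, to *3300002A11Rik* and to *Mhrt* had no read in any mPFC sample. The *Dnah1* contig lay 22.6% opposite *Dnah1* exons, the *3300002A11Rik* contig 0% opposite exons of any gene and the *Mhrt* contig 96.9% opposite *Mhrt* exons, according to GENCODE vM21. The *Dnah1* gene itself differed by -2.35. The *Dnah1* contig had 3.03, 0.148, 2.07, 0.868 and 0.970 CPM in striatum, the *3300002A11Rik* contig 2.74, 0.346, 1.81, 0.797 and 1.26 CPM, and the *Mhrt* contig 0.517, 1.74, 1.35, 1.18 and 1.54 CPM. Against a floor of 3 counts over the mPFC samples, their striatum means were at least 214-fold (*Dnah1*), 210-fold (*3300002A11Rik*) and 191-fold (*Mhrt*) higher. The first pair was highest in striatum 1 and lowest in striatum 2, like the ependymal genes, and the *Mhrt* contig was lowest in striatum 1. The contig opposite *Ttr* followed the choroid plexus (4284, 0.0618, 17.1, 3388 and 1.10 CPM in striatum) and was not called without mice 1 and 4 (adjusted p = 0.0922).

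33 contigs were called in the direction opposite to their gene. Both contigs of this kind that lay opposite *Arpp21* were higher in mPFC, by 1.53 and 1.51, whereas the *Arpp21* gene was higher in striatum (-0.66). For others, the contig lay outside the exons of the gene it was assigned to. The contig assigned to *Podn* was higher in striatum (-0.64, SE 0.12) while *Podn* was higher in mPFC (2.22), and 100% of that contig lay opposite exons of *Scp2*. Of all 32861 contigs, 25046 had at least 50% of their length opposite exons of their own gene, according to the deposited annotation. Of the rest, 505 had at least 50% opposite exons of another gene according to GENCODE vM21. By GENCODE vM21, 840 of all contigs had at least 50% in exons of a gene on the contig's own strand. These annotations can differ, as for a *Fezf2* contig that lay 55.2% opposite *Fezf2* exons by the deposited annotation and 100% by GENCODE vM21.

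Whether antisense and sense reads changed apart from each other was tested by their ratio within each sample, for 11078 genes with enough of both. The ratio differed for 291 genes (2.63%), 154 (1.39%) higher in mPFC and 137 (1.24%) in striatum, and 25 of these reached a 2-fold difference. The median size of the called differences was 0.15 on the log2 scale. The contigs took a median of 28.9% of the reads of gene and contigs in mPFC and 28.9% in striatum, and for 226 genes the reads of the contigs lay within 1% of those of the gene. The largest differences toward mPFC were those of *Ttll3* (95.4% ± 0.727 antisense in mPFC and 83.2% ± 5.35 in striatum, SD, n = 5), *Ptprcap* (99.1% and 96.7%), *Zcwpw1* (17.2% and 7.49%) and *Vamp3* (39.1% and 21.3%). Toward striatum they were those of *Podn* (73.5% ± 2.53 and 95.2% ± 0.703, SD, n = 5), *Nudt8* (10.8% and 25.9%), *Il1rap* (1.47% and 3.93%) and *Gas7* (0.88% and 2.31%). *Zcwpw1* had 15.9%, 17.4%, 16.8%, 20.2% and 15.8% in mPFC and 11.3%, 4.02%, 8.09%, 7.43% and 6.61% in striatum (log2 ratio 1.43, SE 0.23, adjusted p = 0.0341 by limma). Without mice 1 and 4, *Podn* (adjusted p = 0.0170), *Nudt8* (0.0310) and *Gas7* (0.0451) were still called by limma. *Zcwpw1* (0.102), *Ttll3* (0.117), *Ptprcap* (0.101), *Vamp3* (0.0521) and *Il1rap* (0.0822) were then not called. Of these 8 genes, *Zcwpw1* was the gene whose single contig lay almost wholly (98.7%) opposite its own exons. *Ttll3* drew on a contig that lay fully opposite *Arpc4* exons, *Ptprcap* on a contig within *Rps6kb2* exons of the same strand, and *Il1rap* on a contig of which 52% lay in exons of *Gm20319*. The *Vamp3* contig had 2.4% of its length opposite *Vamp3* exons and 24% opposite *Camta1* exons. *Gas7* drew in part on a contig with 0% opposite *Gas7* exons. Contigs assigned to *Nudt8* lay 100% and 91.7% opposite *Doc2g* exons, and 55.4% and 85.8% opposite *Nudt8* exons.

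Among the 77 ASD-related genes with a ratio, 6 were called, among them those at 1.02 for *Fgfr2*, 0.18 for *Dmd*, 0.13 for *Mkks*, 0.04 for *Mef2c* and -0.09 for *Cntnap2*. *Fgfr2*, a growth factor receptor of glia among other cells, had an antisense share of 82.2%, 79.8%, 83%, 85.2% and 83.5% in mPFC and of 69%, 75.2%, 70.5%, 66.9% and 70.4% in striatum. Of its 12 contigs, 3 lay mostly opposite *Fgfr2* exons. The other 9 lay at least in part opposite exons of *Oat*, *Ate1*, *Nsmce4a* or *Ctbp2*, with 22.7% of its length for the *Ctbp2* contig. The other 5 differences were at most 0.18, and the SDs of *Cntnap2*, 28.2% ± 0.175 in mPFC and 29.5% ± 0.413 in striatum (n = 5), show how small a difference passed the test. None of *Fgfr2* (adjusted p = 0.147 by limma), *Dmd* (0.233), *Mkks* (0.118), *Mef2c* (0.247) and *Cntnap2* (0.0599) was called without mice 1 and 4.

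The same regional comparison at P56, the adult age, was used only to see where P14 differed from it. In a fit of 20 samples, the difference between the regions changed between the ages for 299 of 19617 genes (1.52%), 143 more toward mPFC at P14 (0.729%) and 156 more toward striatum at P14 (0.795%). Without P14 mice 1 and 4, 17 genes were called, and without P56 mice 2, 3 and 4, 222 were. In mean log2 level, the striatum samples of P56 mice 2, 3 and 4 held more of the cortical excitatory list than those of P56 mice 1 and 5. *Trpa1*, an ion channel gene, had 5.53 ± 1.00 CPM in mPFC at P14 and 0.18 ± 0.0791 CPM at P56 (SD, n = 5), with at most 0.784 CPM in any striatum sample (3.19, adjusted p = 0.0284, and 0.164 without P14 mice 1 and 4). Without P56 mice 2, 3 and 4 the change of *Trpa1* was 2.11 and not called (adjusted p = 0.168 by edgeR). *Sec14l3* had the largest change toward mPFC among the genes named here, 3.54 (SE 0.32, adjusted p = 0.00161, and 0.0196 without P14 mice 1 and 4). It had 1.57 ± 0.405 and 1.05 ± 0.40 CPM in mPFC and striatum at P14 and 0.515 ± 0.216 and 3.92 ± 1.95 CPM at P56. *Rbp4*, a carrier of retinol, was higher in mPFC at P14 (1.77) more than at P56 (0.50), a change of 1.27 that was also called without P14 mice 1 and 4 (adjusted p = 0.0425).

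Toward the striatum at P14, *Lrrc74b* (-5.83), *Odf3b* (-4.61), *Dynlrb2* (-4.07) and *Mycbpap* (-3.60) changed, and of the 11 ependymal genes 2 did, *Tekt1* (-3.07) and *Dynlrb2*. Without P14 mice 1 and 4 none of these 5 genes was called by edgeR (adjusted p from 0.153 to 0.240). *Tekt1*, a protein of ciliary microtubules, had 0.609 ± 0.0801 CPM in mPFC and 6.84 ± 4.34 CPM in striatum at P14, and 1.02 ± 0.161 and 1.55 ± 1.49 CPM at P56 (SD, n = 5). Over whole lists the median differences at P14 and P56 were -4.24 and -1.33 for ependymal genes, -4.02 and -0.29 for choroid plexus, -1.87 and -0.86 for myelinating oligodendrocytes, -1.14 and -0.34 for precursors and -1.59 and -0.93 for proliferation genes. Among neuronal lists the medians were 2.63 and 1.98 for cortical excitatory neurons and -5.44 and -6.48 for indirect pathway neurons. Few members of these lists passed the test of the change itself: 2 ependymal genes, 1 proliferation gene and none of the choroid plexus, myelinating oligodendrocyte, precursor, cortical excitatory or indirect pathway genes by edgeR. At P56, some striatum punches held few ependymal transcripts, with a summed level of 8.63 to 95.4 CPM against 37 to 200 CPM at P14. The part of what the punch took in these changes was not tested. Of the direct pathway and peptide genes, *Tac1*, the substance P precursor, had 38.3 ± 5.57 and 148 ± 48.9 CPM in mPFC and striatum at P14 and 19.5 ± 2.17 and 279 ± 86.0 CPM at P56, so that its difference toward striatum was larger at P56 by 1.89 (SE 0.33, adjusted p = 0.0284, and 0.118 without P14 mice 1 and 4). None of the 96 ASD-related genes was called for such a change by edgeR, while 22 had an unadjusted p under 0.05 and 7 were called by DESeq2.

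**Figure D5:**
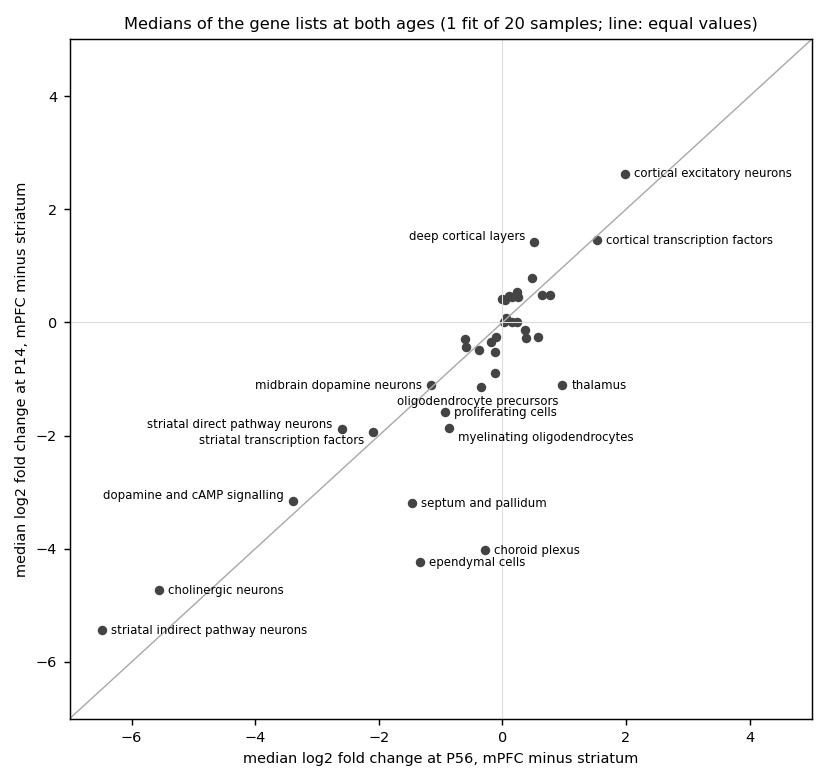
Median log2 difference (mPFC minus striatum) of each gene list at P56 on the horizontal axis and at P14 on the vertical axis, both from the fit of 20 samples. Ependymal and choroid plexus genes lay nearer 0 at P56, while indirect pathway genes lay farther from 0.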

How the data were processed

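Total RNA of punches was sequenced from stranded libraries by the authors. The submitters' notes name CASAVA 1.8.4, FastQC 0.11.5, STAR and GRCm38. The authors deposited raw counts of uniquely mapped reads, 1 table per gene and 1 per antisense contig, the contigs being assembled with Trinity from reads opposite genes and filtered by BLAST. No deposited value was normalized, and each column was matched to a sample by its title.

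A gene or contig needed 10 reads or more in 3 samples or more and was then tested with edgeR 4.0.16 (quasi-likelihood, TMM, Benjamini-Hochberg under 0.05) in R 4.3.3, with the mouse as a block. The pairing rests on the animal numbers that the study gives, since correlations of deviations within mice were -0.09 to 0.15 and 1 of 5 was over 0.1. Contigs used the library sizes of the gene table. Antisense to sense ratios, with 0.5 reads added, were tested with limma 3.58.1. The change between P14 and P56 was the interaction of region and age over 20 samples. DESeq2 1.42.0 was an alternative. The scripts were tested on simulated data. Positions, and the exons of the gene a contig was assigned to, come from the deposited annotation. Exons of other genes come from GENCODE vM21.

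Members and the 40 gene lists were chosen with earlier results of these data known. Named genes were, beside the largest differences described, up to 3 called members of each list with the largest difference, ASD-related genes that the study names for the regions, choroid plexus genes, and the genes changed most by leaving out mice 1 and 4. Others were added after their values were seen. Each sample is of 1 animal. For genes with 3 reads or fewer in a region, the interval of the ratio covers counting error only. Some items are not reported here.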

Additional observations from a re-analysis of the deposited data

Results flagged for a closer look

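For each named gene, the gap between the highest or lowest sample of a region and its nearest neighbour was divided by the range of the 5 samples. The share exceeded Dixon's limit of 0.71 in 43 cases over 134 genes, for which 232 groups of 5 had a highest sample of at least 1 CPM and were tested. Chance alone gives such a share in about 1 in 20 groups.

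mPFC 4, the only female sample of its group, stood apart in 13 cases, and in each it was the highest mPFC sample. Among synaptic and signalling genes these were *Syn1* (0.834), *Iqsec2* (0.868), *Shank2* (0.734), *Gria3* (0.78), *Grm2* (0.884), *Grin2a* (0.722) and *Drd2* (0.727). Of the channel genes, *Cacna1a* (0.816), with 191 CPM against at most 82.3 CPM in the other mPFC samples, *Cacna1g* (0.735) and *Kcnh7* (0.736) did so. The genes of nuclear proteins were *Nfix* (0.833), *Foxp1* (0.79) and *Aff2* (0.905).

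In mPFC 5, *Ovol2* (0.744), *Ramp3* (0.912) and *Cbln1* (0.72) were the highest, and *Sox9* (0.873), *Kcnh4* (0.736) and *Rarb* (0.793) were the lowest of the region. In mPFC 2, *Ccdc129* (0.719) was the lowest.

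Striatum 1 stood apart in 12 cases. It was the lowest for *Chat* (0.719), the enzyme of acetylcholine synthesis, and *Kcnh4* (0.724). It was the highest for *Gbx2* (0.967), of the thalamus list, *Tcf7l2* (0.761), of the oligodendrocyte precursor list, and for *Grm2* (0.814), *Grin3a* (0.863), *Cdh12* (0.838), *Cdh10* (0.714), *Cbln1* (0.777), *Dmd* (0.866), *Acsl4* (0.712) and *Aff2* (0.767).

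Striatum 2 was the highest of its region in 10 cases. These were *Neurod6* (0.807), *Neurod2* (0.804), *Slc17a7* (0.856), *Sv2b* (0.719), *Rspo2* (0.739), *Nr4a2* (0.807), *Ntng2* (0.94), *Cort* (0.786), *Prss12* (0.946) and *Drd3* (0.751). In striatum 4, *Cacna1g* (0.819) was the lowest.

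The region difference at P14 differed from that at P56, by the interaction of region and age, for 24 named genes. Changes toward mPFC at P14 were those of *Sec14l3* (3.54), *Trpa1* (3.19), *Vwa7* (2.53), *Papln* (2.09), *Rasgrp2* (2.08), *Slc17a8* (1.91), *Tacr3* (1.89), *Tac1* (1.89), *Cdh9* (1.53), *Rbp4* (1.27), *Slc5a7* (1.17), *Dusp1* (0.82), *Etv1* (0.80), *Syt4* (0.76) and *Sfxn1* (0.34). Changes toward striatum at P14 were those of *Shox2* (-7.55), *Lrrc74b* (-5.83), *Odf3b* (-4.61), *Dynlrb2* (-4.07), *Mycbpap* (-3.60), *Tekt1* (-3.07), *Ccnb1* (-2.0), *Tnr* (-0.83) and *Npy5r* (-0.76). *Shox2* was at most 22.8 CPM in P14 striatum with a lowest value of 0.00939 CPM, and had too few reads to be tested without P14 mice 1 and 4. Without those mice, *Sec14l3* (adjusted p = 0.0196) and *Rbp4* (adjusted p = 0.0425) were still called, and the other genes that could be tested were not.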

How the results depend on the processing

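The number of genes called (9503) was 10302 without the replicate block, 7486 to 8957 with 1 mouse left out, 9473 with DESeq2's size factors, 10096 with DESeq2 and 9010 without a filter on low counts. The block changed no count of calls by over 1.5 times except that of the change between P14 and P56. That count (299) was 871 with no replicate block, 1996 with DESeq2, 33 to 1245 with 1 mouse left out and 17 without P14 mice 1 and 4. It was 90, 809, 48, 35 and 77 without P14 mice 1 to 5, and 75, 1245, 164, 33 and 47 without P56 mice 1 to 5, so every mouse moved it by over 1.5 times. The count of differing ratios (291) was 346 with no replicate block, 378 with 5 reads added, 85 to 215 with 1 mouse left out (151 without mouse 1, 85 without mouse 3 and 88 without mouse 5) and 83 without mice 1 and 4. Fits without a mouse hold fewer samples. For the other shifts the cause was not tested.

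Of 1530 values of 140 named genes under these alternatives, 1454 kept their direction and side of the threshold, 42 were no longer called, 27 became called and 7 changed sign. No gene that changed sign was called in the main fit of all 5 mice with the mouse as a block. *Aqp1* (adjusted p = 0.0146 by edgeR), *Slc4a5* (0.0124) and *Kcnj13* (0.0299) were called with no replicate block. *Esrrb* was called without mice 1 and 4 (adjusted p = 0.00488 by edgeR). Without mice 1 and 4 the differences of *Aqp1*, *Slc4a5* and *Kcnj13*, choroid plexus genes, were 0.43, 0.58 and 0.41, and without only their striatum samples and the block 0.15, 0.44 and 0.22. *Esrrb* was at -0.35 with no replicate block. Of 9 contigs, 7 kept their call throughout, of 14 ratios 2 and of 25 changes between ages 2. Genes with a few reads in 1 region are limited by depth.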
